A study of Homo sapiens with 2 samples.

Results

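The genes described here are 45 genes of antigen presentation and complement, chosen by name for their function and found in both libraries among 26370 gene names. RNA came from CHME3, an immortalised line labelled as human microglia, at passages 4 to 6. One library is from cells treated with muscarinic receptor antagonists, which block acetylcholine receptors of the muscarinic family, at 5 µg/ml (stated as the EC50), and the other from untreated cells of the same line. The labels name neither the compound nor the time of exposure. With 1 library per condition there is no replicate spread and no test of the treatment, and every interval below compares these 2 libraries only. Values are FPKM, fragments per kilobase of transcript scaled to the size of the library, summed over the transcripts of a gene.

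Class I molecules of the major histocompatibility complex (MHC) display peptides from inside the cell to CD8 T cells and natural killer cells. Their heavy chain pairs with the light chain B2M, is filled by the TAP transporter and its partner tapasin, and depends on the transactivator NLRC5. Class II molecules display peptides from engulfed material to CD4 T cells, need the invariant chain CD74 and the transactivator CIITA, and are carried by microglia mainly when these are activated. Complement is a cascade of plasma proteases and opsonins. In the brain microglia are the main source of its first component C1q, and membrane regulators keep it off the body's own cells.

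Promoters of 5 members follow, searched for short motifs by which interferon and the class I and class II transactivators are known to act on such genes. B2M is shown as the member with the highest level, HLA-B and TAP1 as class I genes whose counting interval lay above 1, HLA-DPB1 as the class II gene with the highest level and HLA-DRB1 as a class II gene near 0. The sequences are from RefSeq on GRCh38.p14 and run 5′ to 3′ from 250 bases before to 50 bases after a gene's start, 300 bases in all. Capitals mark matches on either strand to 4 motifs. These are the core of the interferon-stimulated response element (GAAA, any 2 bases, GAAA), the gamma-activated motif TTCNNNGAA, TGACG of the X box and ATTGG of the Y box, and the response element core can overlap itself.
B2M, chr15:44711267-44711566, plus strand: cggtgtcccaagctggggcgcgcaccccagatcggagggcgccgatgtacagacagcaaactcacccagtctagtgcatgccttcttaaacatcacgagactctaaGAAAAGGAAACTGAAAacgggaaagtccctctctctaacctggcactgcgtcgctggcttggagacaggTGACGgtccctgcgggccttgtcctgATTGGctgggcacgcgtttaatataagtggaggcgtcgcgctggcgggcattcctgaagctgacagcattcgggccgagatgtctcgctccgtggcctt
HLA-B, chr6:31357130-31357429, minus strand: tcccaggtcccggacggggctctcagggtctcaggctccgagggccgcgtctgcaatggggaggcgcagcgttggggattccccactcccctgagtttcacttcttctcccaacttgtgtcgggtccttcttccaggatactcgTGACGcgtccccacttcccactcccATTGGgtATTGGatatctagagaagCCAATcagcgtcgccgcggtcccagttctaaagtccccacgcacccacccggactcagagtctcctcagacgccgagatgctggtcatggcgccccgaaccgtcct
TAP1, chr6:32853655-32853954, minus strand: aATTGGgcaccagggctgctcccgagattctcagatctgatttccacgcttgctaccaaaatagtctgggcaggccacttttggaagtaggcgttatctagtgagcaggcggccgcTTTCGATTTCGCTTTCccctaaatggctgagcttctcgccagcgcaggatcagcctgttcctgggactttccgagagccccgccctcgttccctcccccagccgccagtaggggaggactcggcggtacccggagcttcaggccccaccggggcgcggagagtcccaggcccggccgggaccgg
HLA-DPB1, chr6:33075740-33076039, plus strand: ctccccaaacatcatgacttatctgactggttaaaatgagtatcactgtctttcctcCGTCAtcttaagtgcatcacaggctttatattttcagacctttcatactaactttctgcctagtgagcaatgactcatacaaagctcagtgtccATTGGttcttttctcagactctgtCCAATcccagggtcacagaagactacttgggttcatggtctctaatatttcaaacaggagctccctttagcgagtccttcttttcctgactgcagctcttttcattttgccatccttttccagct
HLA-DRB1, chr6:32589799-32590098, minus strand: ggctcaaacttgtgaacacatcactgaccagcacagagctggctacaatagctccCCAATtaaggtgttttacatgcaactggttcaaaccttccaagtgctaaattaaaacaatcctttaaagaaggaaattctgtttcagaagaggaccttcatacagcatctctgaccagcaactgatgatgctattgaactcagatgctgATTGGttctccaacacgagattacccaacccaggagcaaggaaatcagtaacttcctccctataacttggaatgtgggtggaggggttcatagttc

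The B2M sequence holds 2 overlapping matches to the response element core, 1 to TGACG and 1 to ATTGG. HLA-B holds 1 match to TGACG and 3 to ATTGG, and TAP1 holds 2 overlapping matches to the response element core and 1 to ATTGG. HLA-DPB1 holds 1 to TGACG and 2 to ATTGG, and HLA-DRB1 holds 2 to ATTGG. None of these sequences holds TTCNNNGAA. The TAP1 sequence is that of a start 267 bases from the start of the gene's leading record in the files. RefSeq promoters were matched for 35 of the 45 genes, at 49 starts. The response element core was found at 9 of these 49 starts, 18.4%, in B2M, CD274, CFB, ERAP1, ERAP2, HLA-F, TAP1, TAP2 and TAPBP, and at 3.57% of all 35116 promoters of the same length. TTCNNNGAA was also at 9 of the 49, in 7 genes, against 7.66% of all promoters. TGACG was found at 17 of the 49, 34.7%, in 15 genes, against 24.6% of all promoters. ATTGG was found at 27 of the 49, 55.1%, in 23 genes, against 34.6%. Sequences of some starts of the same gene overlap, as in C1QA and CD59, so a match can be counted more than once. These are matches of letters, not tests of binding.

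The libraries had an estimated 7301216 fragments (treated) and 6805601 fragments (untreated), recovered from the authors' bounds. Across the 11668 genes whose mean of both libraries reached 1 FPKM, the log2 ratio (treated FPKM + 1 over untreated FPKM + 1) had a median of 0.00, with quartiles of -0.10 and 0.11. Defining markers of microglia were largely missing. Of 13 microglia and macrophage markers, 11 were under 1 FPKM in both libraries, 6 of them listed at 0 in both, including AIF1, TMEM119, CX3CR1 and the leukocyte antigen PTPRC. The exceptions were the lysosomal protein CD68, at 12.6 FPKM in the treated and 15.7 FPKM in the untreated library, and CD14, at 1.63 and 1.97 FPKM. The whole list summed to 14.3 FPKM (treated) and 18.0 FPKM (untreated). All 5 markers of B cells, 5 of dendritic cells and 4 of T cells were under 1 FPKM, as were all 3 each of endothelial, astrocyte and neuron markers. Of 8 fibroblast and mesenchymal markers 6 passed it, and that list summed to 6221 FPKM (treated) and 5725 FPKM (untreated). Most of the sum came from FN1, at 3021 and 2725 FPKM, and VIM, at 2025 and 1967 FPKM. The collagen genes COL1A2, at 0.157 and 0.196 FPKM, and COL3A1, listed at 0 in both libraries, did not pass it.

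The common class I chains and their loading genes were present in both libraries, most class II genes and most of the complement cascade were under 1 FPKM, and the membrane regulators of complement were present. Fewer cells that express a gene and less of its RNA per cell cannot be told apart in such bulk RNA. Of the 45 genes, 21 had a mean of at least 1 FPKM, 24 were under 1 FPKM in both libraries, and 9 of these were listed at 0 in both. Of all 26370 gene names, 11668 reached that mean, 14444 stayed below 1 FPKM in each library, and 9300 had 0 in each. Among the 21, 14 were higher and 7 lower in the treated library, or 66.7% higher, against 50.7% of all 11668 genes. Their median log2 ratio was 0.07, against 0.00 for all genes, and ran from -0.45 for HLA-DPA1 to 0.36 for ERAP2. None of the 21 reached 1.5-fold in either direction on the scale of FPKM plus 1, which 1.20% of all genes did upward and 1.03% downward. For 5 members, HLA-B, TAP1, ERAP2, MICB and CD55, the 95% counting interval of the ratio was above 1, and for 0 members it was below 1. Of all genes 6.40% had an interval above 1 and 6.02% below 1. With estimated fragments scaled to depth in place of FPKM, or with the most abundant transcript of a gene alone, 3 members were left, without TAP1 and CD55. All 5 were among the 14 members with at least 300 fragments over both libraries, a depth at which 7.23% of 7096 genes had an interval above 1 and 7.82% below 1. The interval covers counting error alone.

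**Figure D1:**
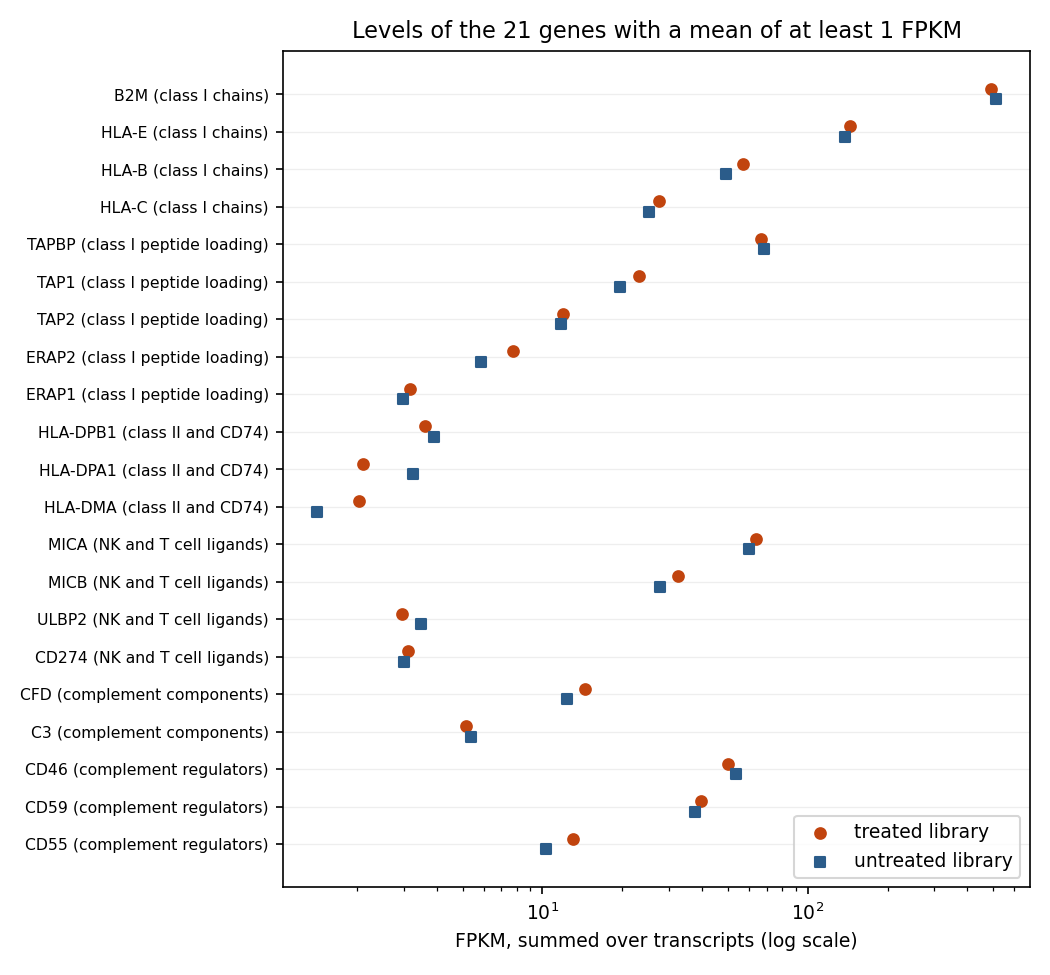
FPKM of the 21 members with a mean of at least 1 FPKM, on a log scale, with circles for the treated and squares for the untreated library, 1 library each, grouped by role. Levels run from 2.04 and 1.42 FPKM for HLA-DMA to 490 and 512 FPKM for B2M in the treated and untreated library, and within a gene the 2 points lie close together.

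**Figure D2:**
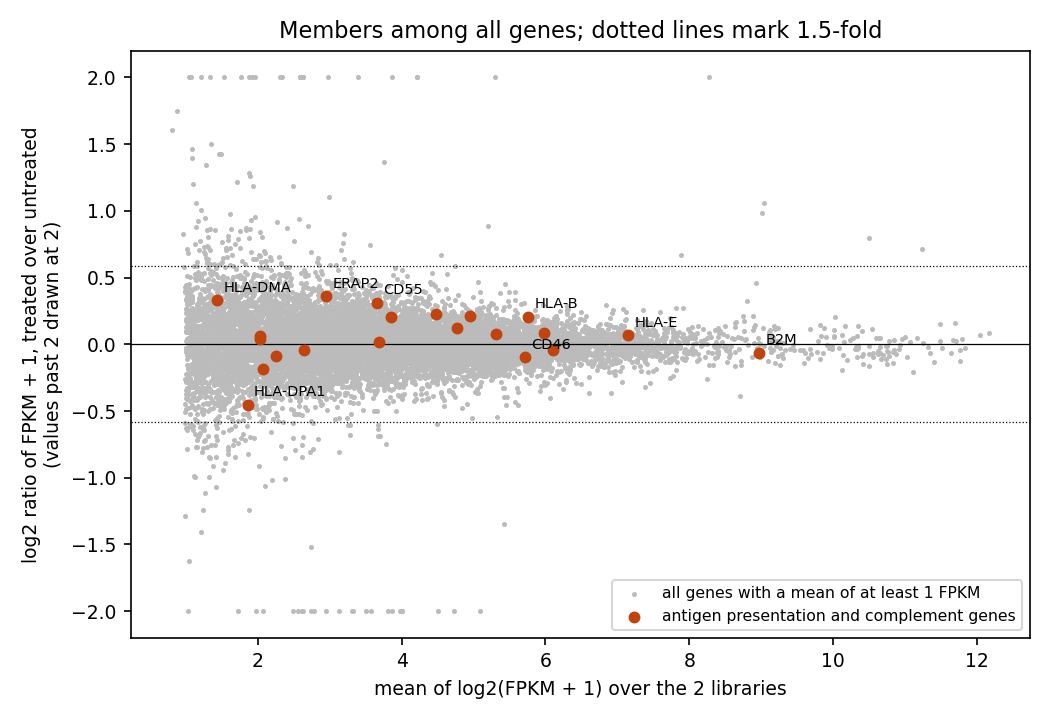
Log2 ratio of treated over untreated FPKM plus 1 against the mean log2(FPKM + 1) of both libraries, for all 11668 genes (grey) and the 21 members (red), with dotted lines at 1.5-fold. All 21 members lie between the dotted lines.

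Among the class I chains, B2M had by far the highest level. It was at 490 FPKM in the treated and 512 FPKM in the untreated library, from 2883 and 2782 fragments. The FPKM ratio was 0.957 with an interval from 0.908 to 1.01, so the libraries did not differ beyond counting error. Its level ranked 147th (treated) and 137th (untreated) of 26370 gene names. HLA-E, which shows signal peptides of other class I chains to natural killer cells, was the heavy chain gene with the next level, at 144 FPKM in the treated and 138 FPKM in the untreated library. Its ratio was 1.05 (0.990 to 1.11), where the bracket here and below gives the 95% counting interval. HLA-B, a classical heavy chain, was at 57.1 FPKM in the treated and 49.3 FPKM in the untreated library, a ratio of 1.16 (1.02 to 1.31) from 562 and 461 fragments. HLA-C, another classical heavy chain, was at 27.4 FPKM in the treated and 25.1 FPKM in the untreated library, a ratio of 1.09 (0.913 to 1.31). The levels of these 4 genes kept the same order in both libraries, and only the interval of HLA-B excluded 1. HLA-B, HLA-C and HLA-E together summed to 229 FPKM (treated) and 212 FPKM (untreated), a ratio of 1.08 (1.03 to 1.13). All 6 class I chains, B2M included, summed to 720 FPKM (treated) and 725 FPKM (untreated). The non-classical chains HLA-F and HLA-G stayed under 1 FPKM. HLA-F was at 0.621 FPKM in the treated and 0.318 FPKM in the untreated library from 5 and 3 fragments, and HLA-G at 0.147 FPKM from 1 fragment in the treated and 0.0528 FPKM in the untreated library. Class I genes differ between people, so levels of HLA-B and HLA-C can also depend on how well the alleles of CHME3 match the sequences used for alignment. Near-identical stretches can also move reads between class I genes, and the size of either effect was not tested.

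Genes that make and load class I peptides were all over 1 FPKM. In 2 of 5, TAP1 and ERAP2, the interval was above 1, as it was in 6.40% of all 11668 genes. That of TAP1 was not with the most abundant transcript alone or with fragments scaled to depth. TAPBP, which encodes tapasin, was at 66.6 FPKM in the treated and 68.7 FPKM in the untreated library, a ratio of 0.970 (0.906 to 1.04). TAP1, the first chain of the peptide transporter, was at 23.1 FPKM in the treated and 19.7 FPKM in the untreated library, a ratio of 1.18 (1.02 to 1.35). Its partner chain TAP2 was at 11.96 FPKM in the treated and 11.8 FPKM in the untreated library, a ratio of 1.02 (0.868 to 1.19). Both chains are needed for transport, and TAP1 was the higher of them in both libraries. ERAP2, an aminopeptidase that trims peptides in the endoplasmic reticulum, was at 7.77 FPKM in the treated and 5.84 FPKM in the untreated library. Its ratio of 1.33 (1.11 to 1.60), from 287 and 206 fragments, was the highest among the 5. Its neighbour on chromosome 5, ERAP1, which trims peptides in the same place, was at 3.15 FPKM in the treated and 2.99 FPKM in the untreated library, a ratio of 1.06 (0.795 to 1.40). Exons of ERAP1 overlap those of CAST on the opposite strand, which was at 54.5 FPKM (treated) and 56.4 FPKM (untreated), and strand is not stated for these libraries.

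The transactivators were low. NLRC5, which drives class I genes, was at 0.585 FPKM in the treated and 0.560 FPKM in the untreated library from 28 and 25 fragments, a ratio of 1.05 (0.588 to 1.87). CIITA, the master regulator of class II genes, was at 0.0257 FPKM in the treated library and listed at 0 in the untreated library, with less than 1 fragment in each. At the depth of these libraries 3 fragments of its shortest record would correspond to 0.155 FPKM (treated) and 0.166 FPKM (untreated).

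Class II genes fell into a group near 0 and a group of 3 genes at low levels. HLA-DPB1, the DP beta chain, was at 3.60 FPKM in the treated and 3.90 FPKM in the untreated library, a ratio of 0.923 (0.688 to 1.24). HLA-DPA1, the DP alpha chain, was at 2.099 FPKM in the treated and 3.24 FPKM in the untreated library from 23 and 33 fragments, a ratio of 0.647 (0.363 to 1.14). This was the member with the lowest log2 ratio, and its interval includes 1. HLA-DMA, a chain of the molecule that edits class II peptides, was at 2.04 FPKM in the treated and 1.42 FPKM in the untreated library from 14 and 9 fragments, a ratio of 1.44 (0.580 to 3.77). Its partner chain HLA-DMB had 1 fragment in each library, at 0.113 FPKM (treated) and 0.121 FPKM (untreated). HLA-DRA, the DR alpha chain, HLA-DQA1 and the invariant chain CD74 were listed at 0 in both libraries. HLA-DRB1 was at 0.136 FPKM from 1 fragment in the treated library and HLA-DQB1 at 0.00465 FPKM from less than 1, and both were listed at 0 in the untreated library. For CD74, 3 fragments would correspond to 0.367 FPKM (treated) and 0.394 FPKM (untreated). Of the 9 genes of class II and CD74, 3 were over 1 FPKM, with 1 higher and 2 lower and a median log2 ratio of -0.09. Reads of HLA-DRB1 and HLA-DQB1 alleles unlike the reference may also go uncounted, which was not tested.

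**Figure D3:**
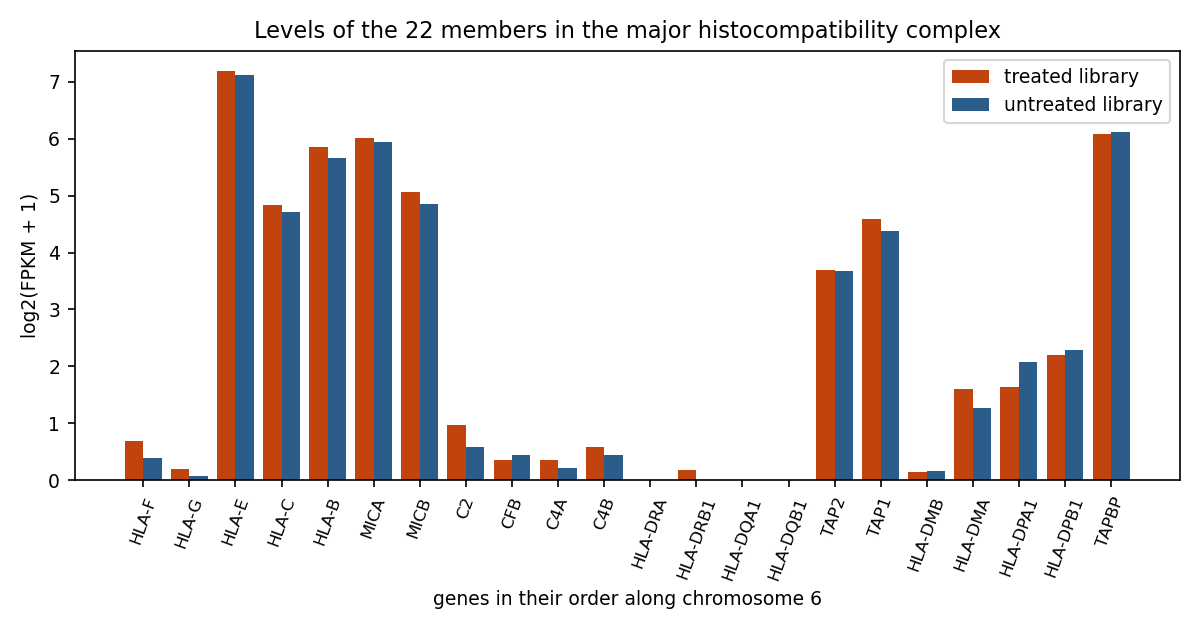
Log2(FPKM + 1) of the 22 members in the MHC, in their order along chromosome 6, with 1 bar for the treated and 1 for the untreated library. High bars stand for HLA-E, HLA-C, HLA-B, MICA, MICB, TAP2, TAP1 and TAPBP, while the complement genes C2, CFB, C4A and C4B and the DR and DQ genes have low bars.

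The MHC on chromosome 6 holds 22 of the 45 genes, between bases 29723340 and 33314387 on hg38.  HLA-E (30489406 to 30494205), HLA-C (31268749 to 31272136) and HLA-B (31353872 to 31357212) come before MICA and MICB. After them come C2, CFB, C4A and C4B, all under 1 FPKM, then the DR and DQ genes near 0. TAP2 (32821833 to 32838823) and TAP1 (32845209 to 32853971), both over 10 FPKM, stand among these class II genes. Of the 22 genes 11 were over 1 FPKM, with 8 higher and 3 lower in the treated library and a median log2 ratio of 0.08. The 23 genes elsewhere had 10 over 1 FPKM, with 6 higher and 4 lower and a median of 0.05. The files also list 242 records of 23 members on alternate sequences, and every one of these records was at 0 in both libraries.

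Ligands of immune receptors were all over 1 FPKM. MICA and MICB, stress-induced ligands of the activating receptor NKG2D, were the ones with high levels. MICA was at 63.8 FPKM in the treated and 60.3 FPKM in the untreated library, a ratio of 1.06 (0.939 to 1.20). MICB was at 32.3 FPKM in the treated and 27.8 FPKM in the untreated library, a ratio of 1.16 (1.02 to 1.32). ULBP2, another NKG2D ligand (chromosome 6, 149941938 to 149949232), was at 2.96 FPKM in the treated and 3.49 FPKM in the untreated library from 26 and 29 fragments, a ratio of 0.847 (0.479 to 1.49). CD274, which encodes PD-L1, an inhibitor of T cells (chromosome 9, 5450503 to 5470567), was at 3.12 FPKM in the treated and 3.02 FPKM in the untreated library, a ratio of 1.04 (0.744 to 1.44). MICB alone of the 4 had an interval that excluded 1.

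Most complement components were under 1 FPKM. The exceptions were CFD and C3. CFD, factor D, the protease that activates the alternative pathway (chromosome 19, 859665 to 863610), was at 14.4 FPKM in the treated and 12.4 FPKM in the untreated library, a ratio of 1.16 (0.859 to 1.58). C3, the central component (chromosome 19, 6677835 to 6720682), was at 5.17 FPKM in the treated and 5.36 FPKM in the untreated library, a ratio of 0.964 (0.779 to 1.19). Factor B, the substrate of factor D, encoded by CFB, was at 0.280 FPKM in the treated and 0.361 FPKM in the untreated library from 5 and 6 fragments. So the levels of the alternative pathway genes were uneven, and neither CFD nor C3 differed beyond counting error. The chains of C1q, C1QA, C1QB and C1QC, were at 0 in each library, and 3 fragments of C1QA would correspond to 0.450 FPKM (treated) and 0.484 FPKM (untreated). The C1 proteases were detected at low levels. C1R was at 0.945 FPKM in the treated and 0.761 FPKM in the untreated library from 16 and 12 fragments, and C1S at 0.108 and 0.231 FPKM from 2 and 4 fragments. C2, the protease of the classical pathway, was at 0.970 FPKM in the treated and 0.491 FPKM in the untreated library from 13 and 6 fragments, a ratio of 1.98 (0.701 to 6.34). C4A and C4B, near-identical copies whose reads can be divided either way, summed to 0.773 FPKM (treated) and 0.518 FPKM (untreated), a ratio of 1.49 (0.813 to 2.81). C5, which starts the membrane attack complex, was at 0.129 FPKM in the treated and 0.0833 FPKM in the untreated library from 5 and 3 fragments.

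The membrane regulators CD46 and CD59 had higher levels than every complement component listed here, while CD55 was below CFD in both libraries. CD46, the cofactor for cleavage of C3b (chromosome 1, 207752038 to 207795516), was at 50.01 FPKM in the treated and 53.5 FPKM in the untreated library, a ratio of 0.934 (0.859 to 1.02). CD59, which blocks assembly of the membrane attack complex (chromosome 11, 33703010 to 33736479), was at 39.7 FPKM in the treated and 37.6 FPKM in the untreated library, a ratio of 1.06 (0.993 to 1.12). CD55, which speeds decay of the convertases (chromosome 1, 207321472 to 207360966), was at 13.03 FPKM in the treated and 10.3 FPKM in the untreated library, from 208 and 159 fragments. Its ratio of 1.27 (1.02 to 1.57) was the only one of the 3 whose interval excluded 1. Together these genes summed to 103 FPKM (treated) and 101 FPKM (untreated), a ratio of 1.01 (0.965 to 1.06). The soluble regulators were at or near 0. SERPING1, the C1 inhibitor, was at 0.314 FPKM from 4 fragments in the treated library and listed at 0 in the untreated library, where 3 fragments would correspond to 0.271 FPKM. CFI, the protease factor I, was listed at 0 in both libraries. So were C3AR1 and C5AR1, receptors for the complement fragments C3a and C5a, for which 3 fragments in the treated library would correspond to 0.232 and 0.191 FPKM and in the untreated library to 0.249 and 0.205 FPKM.

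**Figure D4:**
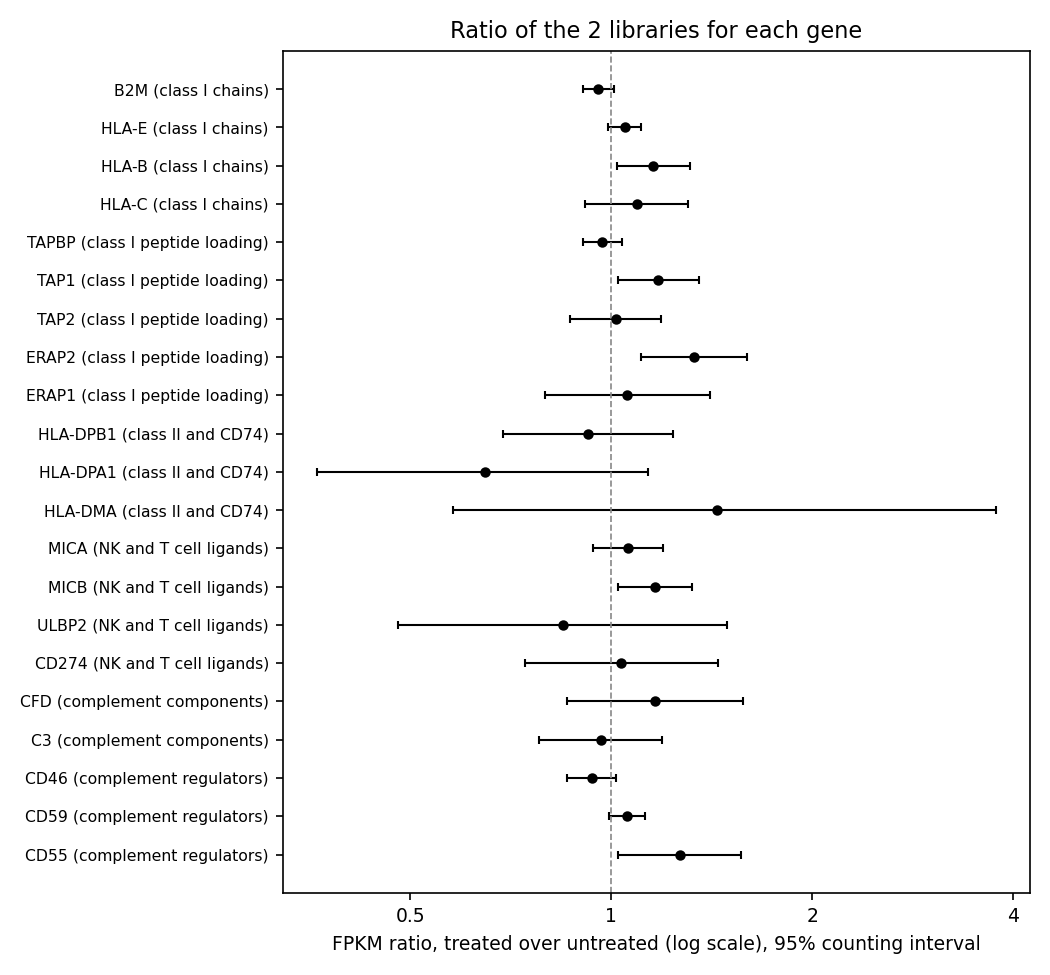
FPKM ratio of treated over untreated for the 21 members with a mean of at least 1 FPKM, on a log scale, with 95% counting intervals as bars and a dashed line at 1. The intervals of HLA-B, TAP1, ERAP2, MICB and CD55 lie above 1, and the widest belongs to HLA-DMA (0.580 to 3.77).

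The authors' values for single transcripts were also compared between the libraries. The members had 33 transcripts averaging 1 FPKM or more, and 8 genes had 2 or more of them. The authors' lower and upper bounds of a transcript were apart between the libraries in 4 of the 33, higher in the treated library for 3 and lower for 1. Among all 16888 such transcripts 6.79% were apart and higher and 6.57% apart and lower. The members' share of transcripts apart was therefore near that of all transcripts. The division of fragments among transcripts is an estimate made by the authors' software, and the bounds may not hold all of its error.

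In CD46 the sums were close while a transcript was lower. The leading transcript NM_172353 was at 30.1 FPKM in the treated and 28.1 FPKM in the untreated library. NM_172352 was at 7.05 FPKM (bounds 5.53 to 8.57) in the treated and 13.3 FPKM (11.2 to 15.4) in the untreated library. The exon structure of the files shows that these transcripts differ by an exon of 93 bases (chromosome 1, 207790253 to 207790345), which takes part in the choice between the alternative cytoplasmic tails of the protein. Summed over all CD46 transcripts, those with this exon made up 28.8% of CD46 FPKM in the treated and 35.5% in the untreated library. A second optional exon of 45 bases (207767779 to 207767823), of the segment near the membrane that is rich in serine, threonine and proline, was in 23.6% of CD46 FPKM in the treated and 22.2% in the untreated library.

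ERAP2 and TAP1, both with a sum whose interval lay above 1, also differed in how the sum was divided. The ERAP2 transcript NM_001130140 was at 7.77 FPKM (6.79 to 8.75) in the treated and 4.16 FPKM (3.34 to 4.98) in the untreated library. NM_022350, which differs by a first exon of 588 in place of 151 bases, was at 3.47e-05 FPKM in the treated and 1.68 FPKM in the untreated library. The TAP1 transcript NM_000593 was at 20.4 FPKM (18.1 to 22.7) in the treated and 19.7 FPKM (17.4 to 21.9) in the untreated library, so its bounds overlap. NM_001292022, with another first exon of 193 bases (chromosome 6, 32852595 to 32852787), was at 2.75 FPKM (1.40 to 4.10) in the treated and 0.0216 FPKM (0 to 0.166) in the untreated library. It made up 11.9% of TAP1 FPKM in the treated and 0.110% in the untreated library. The last exon of TAP1 shares 368 bases with the antisense gene PSMB8-AS1, which was at 1.004 FPKM (treated) and 0.136 FPKM (untreated). Reads of this shared stretch cannot be told apart without strand. In TAPBP the minor transcript NM_172209 was at 3.41 FPKM (2.33 to 4.50) in the treated and 1.301 FPKM (0.609 to 1.99) in the untreated library, beside 62.2 and 64.9 FPKM of the leading NM_003190. Bounds of all transcripts over 1 FPKM overlapped in CD55, whose shorter-spanning transcript NM_001300902 made up 40.6% of CD55 FPKM in the treated and 33.1% in the untreated library.

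**Figure D5:**
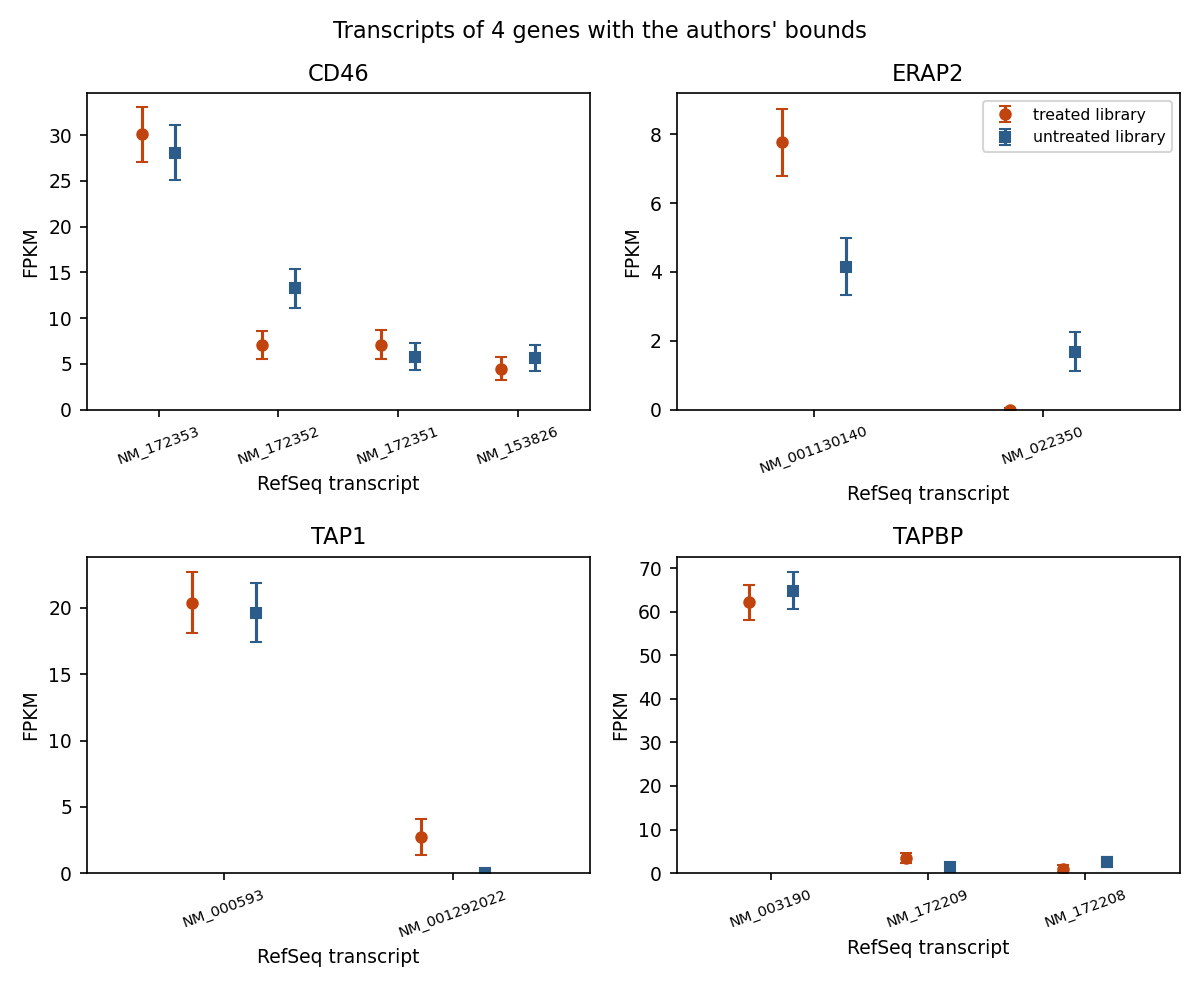
FPKM of each RefSeq transcript of at least 1 FPKM in either library for CD46, ERAP2, TAP1 and TAPBP, with circles for the treated and squares for the untreated library and the authors' lower and upper bounds as bars. In ERAP2 the bars of both transcripts are apart, in opposite directions, while in TAP1 the leading transcript overlaps and the minor one does not.

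Other genes of the pathways came from lists chosen by function, with earlier results of these data known. Of 10 immunoproteasome and chaperone genes 9 were over 1 FPKM, with 7 higher and 2 lower and a median log2 ratio of 0.03, and 1 interval lay above 1 and 0 below. PSMB8, an immunoproteasome subunit whose gene neighbours TAP1, was at 24.8 FPKM in the treated and 16.8 FPKM in the untreated library, a ratio of 1.47 (1.15 to 1.88). PSMB9, another such subunit on the other side of TAP1, was at 3.32 FPKM in the treated and 4.27 FPKM in the untreated library, a ratio of 0.776 (0.413 to 1.44). The interval of PSMB8 lay above 1 and that of PSMB9 included 1. LNPEP, an aminopeptidase next to ERAP2, was at 3.72 FPKM in the treated and 2.98 FPKM in the untreated library, a ratio of 1.25 (0.934 to 1.67), and PSME2, a proteasome activator, at 97.5 and 85.9 FPKM.

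Most, but not all, of the genes listed for control and processing of class II were over 1 FPKM although class II was low. Of 18 such genes 14 were over 1 FPKM, with 11 higher and 3 lower, a median log2 ratio of 0.05, and 1 interval above 1 and 0 below. The others were HLA-DOA and HLA-DOB, listed at 0 in both libraries, CTSS and MARCH1. CTSS was at 0.209 FPKM (treated) and 0.0747 FPKM (untreated), and MARCH1 at 0.210 FPKM (treated) and 0.394 FPKM (untreated). RFXANK, a subunit of the RFX complex on class II promoters, was at 10.7 FPKM in the treated and 8.24 FPKM in the untreated library, a ratio of 1.29 (0.928 to 1.82). RFXAP, another subunit, was at 1.60 and 1.28 FPKM in the treated and untreated library. CTSD, a lysosomal protease, was at 147 FPKM in the treated and 129 FPKM in the untreated library, a ratio of 1.14 (1.07 to 1.21), the only interval of this list that excluded 1. LGMN, an asparagine-specific protease, was at 47.5 FPKM in the treated and 42.4 FPKM in the untreated library, a ratio of 1.12 (0.996 to 1.26).

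Of 16 co-stimulatory and other ligands 7 were over 1 FPKM, with 3 higher and 4 lower, a median log2 ratio of -0.03, and 1 interval above 1 and 0 below. PVR, a ligand of natural killer cell receptors, was at 23.7 FPKM in the treated and 16.9 FPKM in the untreated library, a ratio of 1.40 (1.23 to 1.60) from 503 and 398 estimated fragments. CD40, a receptor of antigen-presenting cells, was at 41.9 FPKM in the treated and 45.3 FPKM in the untreated library, a ratio of 0.924 (0.807 to 1.06). ICOSLG was at 1.55 and 1.41 FPKM, and PVRL2 (nectin-2) at 58.5 and 60.7 FPKM, in the treated and untreated library.

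Only 4 of 31 other complement genes were over 1 FPKM, and 18 were listed at 0 in both libraries. CLU, the complement-binding chaperone clusterin, was at 3.57 FPKM in the treated and 5.87 FPKM in the untreated library from 70 and 107 fragments. Its ratio of 0.609 (0.444 to 0.831) was the only interval of this list that excluded 1, and its log2 ratio of -0.59 was past 1.5-fold. C1RL, a C1r-like protease, was at 6.36 FPKM in the treated and 8.09 FPKM in the untreated library, a ratio of 0.786 (0.612 to 1.01), although its estimated fragments were 150 (treated) and 113 (untreated) over transcripts of unequal length. C1QBP, a mainly mitochondrial protein named for binding C1q, was at 152 and 143 FPKM, and the scavenger receptor COLEC12 at 1.44 and 1.34 FPKM, in the treated and untreated library.

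Interferon is the known inducer of class I genes, and genes of its signalling were measured beside them. Of 18 genes of interferon-gamma and its control, 9 were over 1 FPKM, with 6 higher and 3 lower and a median log2 ratio of 0.10. GBP1, an interferon-induced GTPase, was at 1.67 FPKM in the treated and 1.10 FPKM in the untreated library, a ratio of 1.51 (0.856 to 2.73). Of the same list, GBP2, GBP4, GBP5, IDO1, CXCL9 and CXCL10 were under 1 FPKM in both libraries, and IFNG was listed at 0 in both. PTPN2, a phosphatase that restrains this signalling, was at 8.27 and 6.40 FPKM and the repressor IRF2 at 3.38 and 2.80 FPKM, in the treated and untreated library. The part of these genes in the values of HLA-B, TAP1 and ERAP2 was not tested.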

How the data were processed

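RNA was measured in 1 treated and 1 untreated library of CHME3 cells. The submitters' processing notes name TopHat, Cuffdiff and hg38, without versions. The authors deposited an FPKM per RefSeq transcript with lower and upper bounds, in text with Cufflinks as its source. The authors' deposited score per transcript was not used. Both libraries list 56891 transcript records. Samples were grouped by their treatment label.

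FPKM were summed by gene name. Log2 ratios took treated over untreated values after adding 1 FPKM to each, which understates ratios of low genes, and were summarised where both libraries averaged 1 FPKM or more. Past-fold calls used 1.5-fold, with no test. Fragments were the square of 2 × FPKM over the distance to the upper bound where 1 record held all signal, and otherwise came from FPKM, length and depth. Depth came from fitting fragments per FPKM against transcript length by a line, over values of at least 10 fragments whole within 0.01 on transcripts of at least 1000 bases, refitted without points over 10% from it. Of values with at least 3 fragments, 21.3% (treated) and 21.1% (untreated) were whole, so fragments are estimates. Intervals are 95% exact conditional binomial and cover counting error only. They were tried on counts simulated directly, which leaves out the error of estimating fragments and of dividing them among transcripts. A value at 0 is given with the FPKM of 3 fragments on the shortest record.

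The members and lists were chosen with earlier results of these data known. Every member is reported, and of each other list up to 4 genes averaging 1 FPKM or more with the largest absolute log2 ratio, except 1 gene that is not reported here. PSMB8-AS1 and CAST are named for their overlap with members. Genes under 1 FPKM are also named from the lists of class II control and of interferon-gamma. Python 3.11.15, pandas 2.3.3, NumPy 2.4.6 and SciPy 1.17.1 were used.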

Additional observations from a re-analysis of the deposited data

How the results depend on the processing

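The alternatives were pseudocounts of 0.1 and 5, no filter and a filter at a mean of 5 FPKM, the most abundant transcript alone, estimated fragments scaled to depth, a median log2 ratio set to 0, TPM, and records on primary chromosomes alone. Of 98 comparisons of a list median or a count with its main value, 93 stayed within the spread defined for them. Those on primary chromosomes alone could not move. A list's own spread was wide for some medians. That of complement components was 0.08 over 2 genes and 0.27 over 6 genes with fragments scaled to depth, within its spread. The median of class I peptide loading was 0.06, and 0.21 with the most abundant transcript, also within. The median log2 ratio of complement regulators was past its spread, at 0.20 with no filter against 0.08. With the most abundant transcript 1 member (ERAP2, with a log2 ratio of 0.77) was at least 1.5-fold higher, and with a pseudocount of 0.1 there was 1 member, HLA-DPA1, at least 1.5-fold lower (-0.60). The count of members with an interval above 1 was 3 with the most abundant transcript and 3 with fragments scaled to depth, HLA-B, ERAP2 and MICB in both, without TAP1 and CD55. It was 5 under the other 7 alternatives. The pseudocounts do not enter the interval and the members' alternate records were all at 0. So the pseudocounts and the use of primary chromosomes alone could not change this count. Nor could the filter at 5 FPKM, as the members counted all average more than that. The agreement of these alternatives is no support for the count. The median set to 0 and TPM scaled treated values by only 1.002 and 1.003, so they could hardly change it. No member had an interval below 1 under any of the 9. TAP2 (-0.07 to 0.21) and CD46 (-0.10 to 0.10), whose intervals include 1, took both signs. The cause of these changes was not tested. No paired analysis was possible because each condition has 1 library, and none could be left out. Depth limits members under 1 FPKM, which rest on at most 28 fragments a library.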
